A study of Homo sapiens with 20 samples.

Results

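The 10 genes described here are 5 subunits of the transcription factor NF-κB (NFKB1, NFKB2, REL, RELA and RELB) and 5 of its regulators (NFKBIA, TNFAIP3, TRAF3, BIRC3 and MAP3K14). They were picked by gene symbol from the 18305 genes with an FPKM value (fragment counts scaled to transcript length and to the size of the library), by a rule that uses no measured value, though with earlier results of these data known. All 10 passed the filter on low values that left 13089 genes for testing. RNA was sequenced from 10 groups of 2 biological replicates each, 20 libraries in all. Wild-type (WT) and bortezomib-resistant (BtzR) cells came from AMO1, L363 and RPMI-8226, which are myeloma lines, and from the B-lymphoblastoid line ARH-77, and carfilzomib-resistant (CfzR) cells from AMO1 and L363. The resistant cells were kept in 90 nM of bortezomib, a peptide boronate, or carfilzomib, a peptide epoxyketone, both of which block the proteasome. All cells grew in RPMI-1640 with serum, and RNA came from frozen pellets. Each resistant group was 1 line evolved in vitro, so the replicates measure the spread within that line and not between independently evolved lines, and lasting resistance and the presence of drug cannot be told apart.

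NF-κB subunits bind DNA as dimers and are held inactive in the cytoplasm by inhibitors of the IκB family and by the unprocessed precursors p105 and p100. In the canonical pathway IκB-α is degraded by the proteasome, which frees dimers with RELA or c-REL. In the non-canonical pathway the kinase NIK starts the processing of p100 to p52, also by the proteasome, and p52 pairs with RELB. Several regulators are themselves transcribed under NF-κB and feed back on it, and plasma cell tumours are known for gains of NIK and losses of TRAF3. Only RNA was measured here, so neither processing nor nuclear NF-κB can be read from these values, and in bulk RNA a change per cell and a change in the share of cells with the transcript cannot be told apart.

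The summed FPKM of a library lay between 457317 and 494850, and 10455 to 11023 genes had at least 1 FPKM. Replicates correlated across tested genes with a Pearson r between 0.986 (ARH-77 WT) and 0.998, on the log2(FPKM + 1) scale. The 2 libraries labelled AMO1 CfzR correlated with the L363 libraries at r between 0.986 and 0.992 and with the other AMO1 libraries at r between 0.878 and 0.883. They went against their label as an AMO1 line, and each of their values below is given as that of the libraries labelled AMO1 CfzR. All 7 plasma cell markers reached 1 FPKM in every library of the 3 myeloma lines, with sums from 852 to 4083 FPKM. In ARH-77 they summed to between 278 and 322 FPKM, and the 6 B-cell markers to between 504 and 738 FPKM, against 54.3 FPKM or less elsewhere.

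Most of the members carried letters of the κB consensus in front of a start site. The table of RefSeq promoter windows on GRCh38.p14, each around an annotated start site, held 9 of the 10 members; RELB was not among them. The κB consensus, searched on both strands, was found in a window of 7 of these 9 members (77.8%), namely NFKB1, NFKB2, REL, NFKBIA, TNFAIP3, TRAF3 and BIRC3. It was found in 5.91% of all 35116 windows and in 8.96% of the 10285 tested genes that have one. A match of letters is not a bound site. The 210 bases before the start site are shown for the inhibitor, the ubiquitin enzymes and the subunit followed most closely below, with consensus matches in capitals. NFKB2 lies at chr10:102394368-102394577 on the plus strand, and its first run of capitals holds overlapping matches. NFKBIA lies at chr14:35404750-35404959 on the minus strand, TNFAIP3 at chr6:137867049-137867258 and BIRC3 at chr11:102317274-102317483, both on the plus strand.
NFKB2: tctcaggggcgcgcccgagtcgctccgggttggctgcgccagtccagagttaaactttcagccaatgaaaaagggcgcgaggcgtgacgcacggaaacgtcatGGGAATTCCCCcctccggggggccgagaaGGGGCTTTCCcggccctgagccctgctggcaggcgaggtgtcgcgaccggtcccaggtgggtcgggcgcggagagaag
NFKBIA: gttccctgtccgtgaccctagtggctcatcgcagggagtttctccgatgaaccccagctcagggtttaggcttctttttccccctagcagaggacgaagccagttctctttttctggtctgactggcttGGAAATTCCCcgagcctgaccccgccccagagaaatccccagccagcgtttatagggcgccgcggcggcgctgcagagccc
TNFAIP3: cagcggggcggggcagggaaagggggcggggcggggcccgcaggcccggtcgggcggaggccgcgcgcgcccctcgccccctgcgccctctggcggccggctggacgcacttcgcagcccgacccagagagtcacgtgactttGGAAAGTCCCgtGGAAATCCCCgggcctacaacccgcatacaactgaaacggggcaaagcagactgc
BIRC3: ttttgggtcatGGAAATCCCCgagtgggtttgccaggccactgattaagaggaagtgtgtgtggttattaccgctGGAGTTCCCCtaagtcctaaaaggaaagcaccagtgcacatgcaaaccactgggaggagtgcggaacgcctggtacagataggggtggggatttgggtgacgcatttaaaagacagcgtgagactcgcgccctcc

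The first bases of the capital runs lay 107 and 78 bases before the start site in the NFKB2 window shown, and 81 bases before it in NFKBIA. NFKB2 also had windows around other start sites. That at chr10:102395455-102395754 had matches beginning 176 and 21 bases before its start site, and that at chr10:102393860-102394159 had no match. In TNFAIP3 the 2 matches began 67 and 55 bases before the start, and in BIRC3 they lay farther out, at 199 and 135 bases. No match was found in the windows of RELA and MAP3K14.

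Most members differed between the WT lines, and so did most tested genes. Whether the members differed more than other genes was not tested. Called here means a Benjamini-Hochberg adjusted p under 0.05 from limma with a log2-fold change of at least 1 in size, on the log2(FPKM + 1) scale. In an F test with limma, 7 of the 10 members differed among the 4 WT lines with a spread of at least 1 on this scale, where 52.2% of all tested genes did. NFKB2, RELA and RELB did not reach that spread, at 0.72, 0.73 and 0.77. Without replicate 2 of ARH-77 WT the spread of NFKB2 and RELB was 1.06 and 1.12, and both were called.

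MAP3K14 (NCBI gene 9020), which encodes NIK, showed the widest spread among the WT lines. It stood at 88.0 and 90.5 FPKM in the L363 WT replicates, at 15.6 and 15.1 in AMO1 WT, at 16.1 and 13.3 in ARH-77 WT, and at 7.62 and 7.86 in RPMI-8226 WT. The L363 values lay above every library of the other WT lines, and the AMO1 and ARH-77 values overlapped. L363 WT exceeded RPMI-8226 WT by 3.37 ± 0.10 (log2, ± SE, limma adjusted p = 2.7e-13). All 4 resistant L363 libraries lay between 65.6 and 87.0 FPKM, below both L363 WT libraries.

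TRAF3 (NCBI gene 7187), the adaptor that marks NIK for degradation, was ordered otherwise. It was at 13.3 and 12.9 FPKM in AMO1 WT and at 14.1 and 11.2 in ARH-77 WT, at 4.0 and 4.01 in L363 WT, and at 1.12 and 1.15 in RPMI-8226 WT. It was called in 5 of the 6 pairs of WT lines, all but AMO1 against ARH-77, whose libraries overlapped. AMO1 WT exceeded RPMI-8226 WT by 2.72 ± 0.11 (log2, limma adjusted p = 2.2e-11). The ratio of MAP3K14 to TRAF3, both per transcript length, was therefore 1.18 in both AMO1 WT libraries, 1.15 and 1.19 in ARH-77 WT, 6.80 and 6.83 in RPMI-8226 WT, and 22.0 and 22.6 in L363 WT.

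NFKBIA (NCBI gene 4792), the gene of IκB-α, was at 83.2 and 79.5 FPKM in L363 WT against 20.5 and 17.3 in AMO1 WT and 13.3 and 12.8 in RPMI-8226 WT. The 2 ARH-77 WT libraries stood far apart, at 71.3 and 29.8 FPKM. BIRC3 (NCBI gene 330), which encodes the ubiquitin ligase cIAP2, and TNFAIP3 (NCBI gene 7128), which encodes the ubiquitin-editing enzyme A20, were both lowest in RPMI-8226 WT. There BIRC3 was at 4.47 and 4.82 FPKM and TNFAIP3 at 12.7 and 13.6, whereas the other WT libraries ranged from 25.3 to 45.6 and from 22.7 to 56.8. By group mean RPMI-8226 WT was the lowest of all 10 groups in NFKB1, NFKB2, REL, NFKBIA, TNFAIP3, TRAF3, BIRC3 and MAP3K14, and the highest in RELA. In NFKB1, NFKB2, REL and BIRC3 its libraries overlapped those of the next group.

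Among the subunits, REL (NCBI gene 5966), which encodes c-REL, set ARH-77 apart. Its WT libraries were at 11.2 and 12.8 FPKM, while every library of the myeloma lines lay between 1.61 and 3.93. NFKB1 (NCBI gene 4790), the gene of p105 and p50, was likewise highest in ARH-77 WT, at 48.1 and 36.6 FPKM, against 16.3 to 22.6 in the other WT libraries. ARH-77 was called above L363 and RPMI-8226 for NFKB1, and above all 3 myeloma lines for REL. RELA (NCBI gene 5970), the gene of p65, ranged only from 24.8 to 48.3 FPKM over all 20 libraries and was called in none of the 6 pairs.

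Pair by pair, members were called in 3 of 10 cases for AMO1 against L363, where 16.6% of all tested genes were called, and in 3 for AMO1 against RPMI-8226 (21.9% of genes). They were called in 2 for AMO1 against ARH-77 (24.3% of genes), 5 for L363 against RPMI-8226 (21.9% of genes), 4 for L363 against ARH-77 (25.2% of genes) and 6 for RPMI-8226 against ARH-77 (28.4% of genes). These pairs share WT libraries and are not independent.

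**Figure D1:**
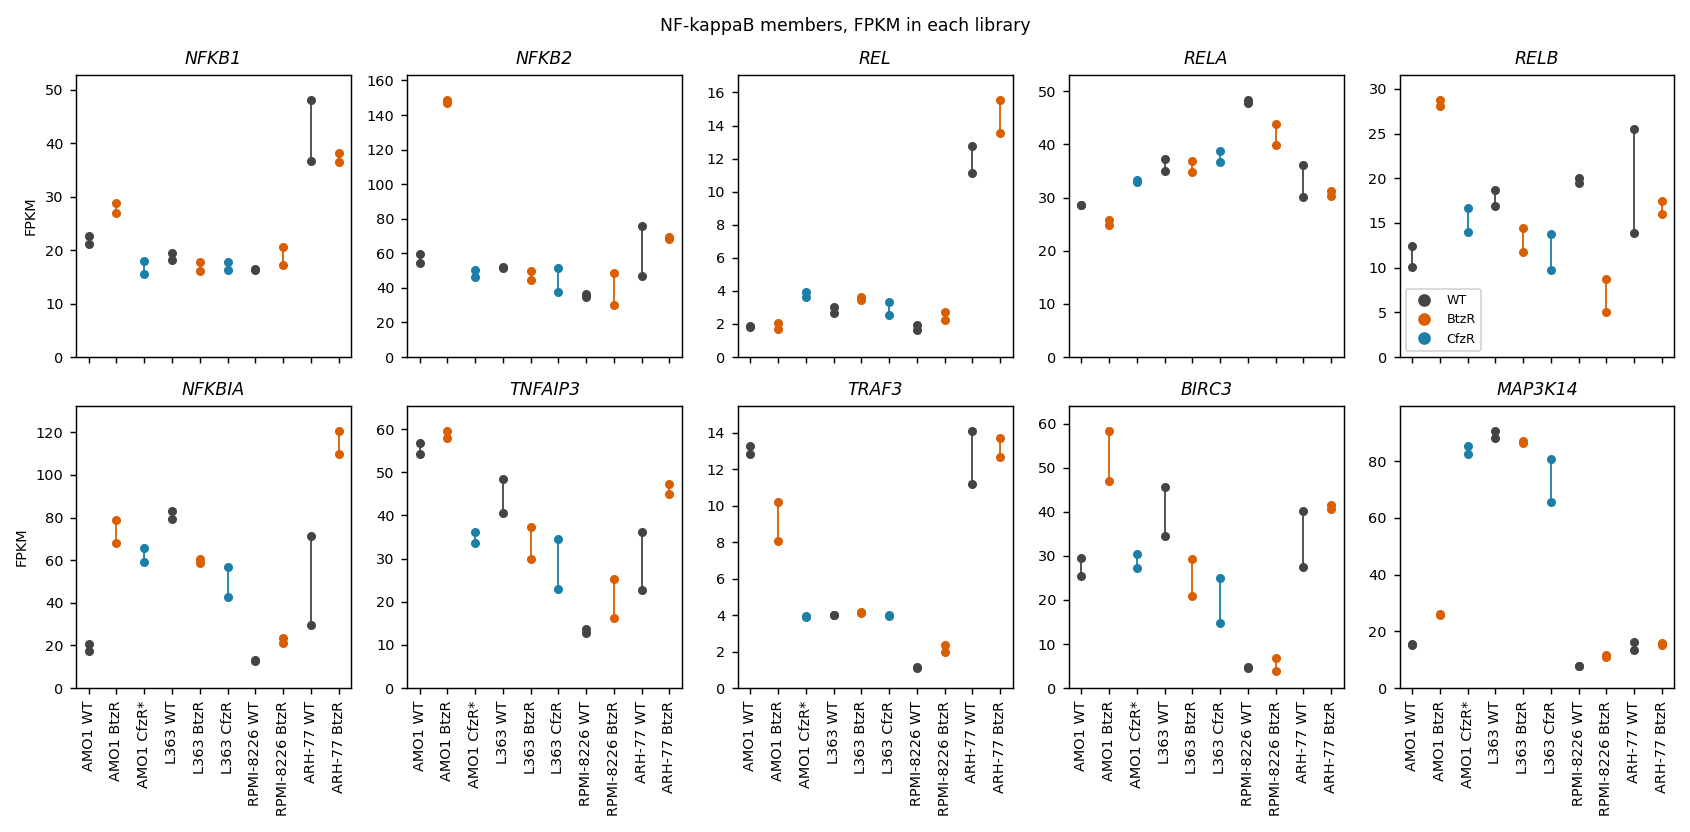
FPKM (linear axis from 0, a different scale in each panel) of the 10 members in the 10 groups, 1 point per library with a line joining the 2 replicates; grey is WT, orange BtzR, blue CfzR, and the asterisk marks the libraries labelled AMO1 CfzR, which resembled L363. NFKB2 is highest in AMO1 BtzR (149 and 147 FPKM), MAP3K14 in the L363 groups and the libraries labelled AMO1 CfzR, and REL in ARH-77.

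Bortezomib resistance in AMO1 came with more RNA of NFKB2, RELB and NFKBIA. Called higher were 3 of the 10 members, where 4.61% of all tested genes were called higher, and 0 were called lower, where 4.57% were. The median member differed by 0.53 (log2), against -0.00 over all tested genes. TNFAIP3, REL and RELA showed no call, and NFKB1, TRAF3, BIRC3 and MAP3K14 had an adjusted p under 0.05 with a difference below the fold threshold.

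NFKB2 (NCBI gene 4791), the gene of p100 and p52, stood at 54.6 and 59.4 FPKM in AMO1 WT and at 149 and 147 in AMO1 BtzR. No other library in the series exceeded 75.6 FPKM. The log2-fold change was 1.36 ± 0.21 (limma adjusted p = 8.3e-05). RELB (NCBI gene 5971), whose protein pairs with p52, moved from 10.1 and 12.4 FPKM to 28.1 and 28.7, again the highest of the 10 groups, with a log2-fold change of 1.27 ± 0.25 (limma adjusted p = 0.00063).

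NFKBIA moved from 20.5 and 17.3 FPKM to 78.8 and 68.0, the largest change of a member in this comparison (log2-fold change 1.90 ± 0.26, limma adjusted p = 2.9e-05). Both replicates lay above both WT values for all 3 genes. BIRC3 was also above WT in both replicates, at 58.3 and 47.1 against 29.4 and 25.3 FPKM, with a log2 difference of 0.92 ± 0.26 (limma adjusted p = 0.0086). This lay just under the fold threshold, and BIRC3 passed it without WT replicate 1 or without BtzR replicate 2 (log2-fold change 1.02 and 1.07).

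MAP3K14 and TRAF3, which act on the level of NIK, shifted by less. MAP3K14 was at 25.9 and 26.2 FPKM against 15.6 and 15.1 in WT (log2 difference 0.72 ± 0.10), and TRAF3 at 8.08 and 10.2 against 13.3 and 12.9 (-0.48 ± 0.11). Their ratio went from 1.18 in both WT libraries to 3.20 and 2.57. The subunits of the canonical dimer differed by less: RELA was at 24.8 and 25.9 FPKM against 28.6 and 28.7, and NFKB1 at 27.0 and 28.9 against 21.1 and 22.6 (log2 difference 0.34 ± 0.12, limma adjusted p = 0.027). The sum of NFKB2 and RELB over the sum of NFKB1 and RELA was 3.42 and 3.21 in AMO1 BtzR, against 1.30 and 1.40 in AMO1 WT and 0.58 to 1.30 in all libraries of the other groups. TNFAIP3, often taken as a target of the same pathway, was at 57.9 and 59.5 FPKM against 56.8 and 54.2.

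In the same libraries the plasma cell markers summed to 2150 and 2382 FPKM against 4083 and 3761 in AMO1 WT, and the B-cell markers to 26.2 and 26.5 against 53.0 and 54.3 FPKM. The T-cell markers summed to 0.76 and 1.07 against 6.73 and 10.7 FPKM. Most of each difference lay in 1 gene. SDC1 averaged 1316 FPKM against 3075 in WT, CD79B 24.4 against 51.9 and CD3E 0.90 against 8.70. Of the other plasma cell genes, CD38 (6.39 against 14.2), IRF4 (119 against 156) and TNFRSF17 (85.1 against 91.6) were lower as well. MZB1 (629 against 489) and PRDM1 (37.9 against 26.3) were higher, and XBP1 was alike (73.0 against 70.7). The part of these shifts in the member values was not tested.

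**Figure D2:**
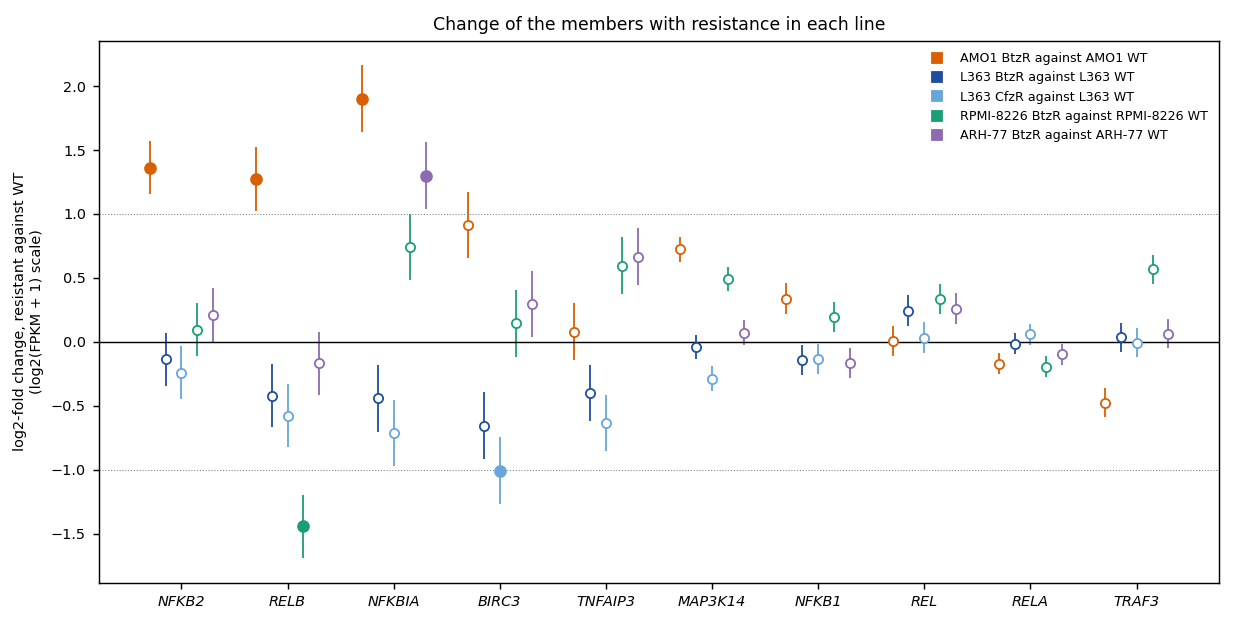
Log2-fold change of each member in each resistant group against the WT cells of its line (log2(FPKM + 1) scale, means of 2 against 2 libraries). Bars are ± SE from limma, which pools the spread of a gene over all 20 libraries. A gene's bar is therefore equally long in every group and does not measure the spread of the libraries compared. Filled points passed both thresholds and dotted lines mark a change of 1. NFKB2, RELB and NFKBIA are filled for AMO1 BtzR (1.36, 1.27 and 1.90), RELB for RPMI-8226 BtzR (-1.44), NFKBIA for ARH-77 BtzR (1.30) and BIRC3 for L363 CfzR (-1.01).

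In RPMI-8226, bortezomib resistance came with less RELB and with no call for NFKB2. Called lower was 1 of the 10 members, where 7.92% of all tested genes were called lower, and 0 were called higher, where 5.91% were. RELB was at 19.5 and 20.1 FPKM in WT and at 4.99 and 8.76 in BtzR, the lowest of the 10 groups. It fell by 1.44 ± 0.25 on the log2 scale (limma adjusted p = 0.00018), and both BtzR libraries lay below every other library of the series.

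NFKB2 was at 34.9 and 36.7 FPKM in WT and at 30.3 and 48.3 in BtzR, so that the BtzR libraries enclosed the WT values (log2 difference 0.09 ± 0.21). NFKBIA, TNFAIP3, REL, TRAF3 and MAP3K14 were 0.34 to 0.74 higher on the log2 scale, each with a limma adjusted p under 0.05 and under the fold threshold. Over other settings with all libraries of the 2 groups kept, the limma adjusted p reached 0.059 for TNFAIP3 and 0.083 for REL. TNFAIP3 was at 16.3 and 25.3 FPKM against 12.7 and 13.6, and its difference ran from 0.29 to 0.90 with single libraries left out. NFKBIA was at 21.3 and 23.7 against 13.3 and 12.8 FPKM. TRAF3 was at 1.97 and 2.37 FPKM against 1.12 and 1.15, with no overlap. By group means TRAF3 was 1.91-fold and MAP3K14 1.46-fold of WT, and the ratio of MAP3K14 to TRAF3 was 5.51 and 4.95 against 6.80 and 6.83 in WT. Plasma cell markers summed to 914 and 852 FPKM in RPMI-8226 BtzR against 1231 and 1191 in WT. MZB1 (mean 368 against 686 FPKM), TNFRSF17 and CD38 were lower, and XBP1 (334 against 247) and IRF4 (100.3 against 63.4) higher. The part of this in the member values was not tested.

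In ARH-77 the called member was NFKBIA. Called higher was 1 of the 10 members, where 0.955% of all tested genes were called higher, and 0 were called lower, where 0.649% were. NFKBIA was at 71.3 and 29.8 FPKM in WT and at 120.5 and 110.0 in BtzR, with a log2-fold change of 1.30 ± 0.26 (limma adjusted p = 0.0034). All BtzR values lay above all WT values, but the WT replicates were 1.23 apart on the log2 scale. The change was 0.68 without WT replicate 2, and with only the 4 compared libraries in the fit the limma adjusted p was 0.16. TNFAIP3 was at 47.4 and 44.9 FPKM against 36.2 and 22.7 (log2 difference 0.66 ± 0.22, limma adjusted p = 0.063), and its difference was 0.34 without WT replicate 2 and 0.99 without WT replicate 1. NFKB2 was at 68.1 and 69.7 FPKM, between the WT values of 75.6 and 46.7.

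In L363 no member was called above WT. Against L363 WT, 0 of the 10 members were called in BtzR, where 1.02% of all tested genes were called higher and 1.05% lower by limma, and BIRC3 was the 1 member with an unadjusted p under 0.05 (0.024). In CfzR 1 was called lower, where 0.825% were called lower, and 0 higher, where 1.11% were. The called gene was BIRC3, at 34.5 and 45.6 FPKM in WT, 21.0 and 29.3 in BtzR and 14.8 and 24.9 in CfzR. In CfzR it fell by 1.01 ± 0.26 on the log2 scale (limma adjusted p = 0.024). The call was lost without L363 WT replicate 2 (-0.81) or without CfzR replicate 1 (-0.65), as well as with no filter on low values or with either other scaling. RELB, NFKBIA, TNFAIP3 and MAP3K14 were lower in CfzR with an unadjusted limma p under 0.05 (0.036, 0.016, 0.012 and 0.0098). None of these had an adjusted p under 0.05 in this fit. Over the other settings with all libraries of the 2 groups kept, the limma adjusted p of NFKBIA ran from 0.013 to 0.21. That of RELB, TNFAIP3 and MAP3K14 was 0.051 or more, and no setting gave a call for any of them.

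NFKBIA showed the same order of groups without a call, at 83.2 and 79.5 FPKM in L363 WT, 58.5 and 60.8 in BtzR and 42.8 and 56.6 in CfzR. The log2 difference from WT was -0.44 ± 0.26 in BtzR and -0.71 ± 0.26 in CfzR, and the WT libraries lay above both resistant groups. TNFAIP3 was at 40.5 and 48.5 FPKM in WT, 29.8 and 37.2 in BtzR and 22.9 and 34.6 in CfzR. RELB was at 16.9 and 18.7 in WT, 11.7 and 14.5 in BtzR and 9.73 and 13.8 in CfzR. Both resistant groups are compared with the same WT libraries, so these differences are not independent. TRAF3 stayed between 3.97 and 4.16 FPKM in all 6 L363 libraries.

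The 2 drugs were compared within L363, at the same 90 nM. Between CfzR and BtzR, 0 of the 10 members were called, where 0.94% of all tested genes were called higher in CfzR and 0.535% lower by limma, and MAP3K14 was the 1 member with an unadjusted p under 0.05 (0.022). Over the 10 members the 95% intervals of the difference (CfzR minus BtzR, log2) ran from -0.91 to 0.38, with the lower bound belonging to BIRC3 and the upper to RELB. The lack of a call does not show that the drugs act alike.

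The libraries labelled AMO1 CfzR followed L363 in the members as well. Against AMO1 WT, 2 members were called higher, where 7.88% of all tested genes were, and 1 lower, where 9.21% were. MAP3K14 was at 82.5 and 85.3 FPKM (log2-fold change 2.37 ± 0.10), NFKBIA at 59.4 and 65.6 (1.68 ± 0.26) and TRAF3 at 3.96 and 3.91 (-1.51 ± 0.11), each with a limma adjusted p of 6.2e-05 or less. Against L363 WT 0 were called, where 0.856% of all tested genes were called higher and 0.802% lower by limma, and REL was the 1 member with an unadjusted p under 0.05 (0.018). REL was at 3.65 and 3.93 FPKM in them and at 2.66 and 3.02 in L363 WT. No effect of carfilzomib on AMO1 is read from these libraries.

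Whether a member answered alike to bortezomib resistance in the 4 lines was tested by an interaction term (moderated F, limma). The line effects differed, with a spread of at least 1, for 6 of the 10 members, where 32.6% of all tested genes did. RELB had the widest spread, 2.72 (log2, limma adjusted p = 8.7e-05), from 1.27 in AMO1 to -1.44 in RPMI-8226. NFKBIA followed with 2.34, from 1.90 in AMO1 to -0.44 in L363. NFKB2 had a spread of 1.5, with AMO1 at 1.36 and the other lines between -0.14 and 0.21. BIRC3 had a spread of 1.57, TNFAIP3 of 1.06 and TRAF3 of 1.05. These 3 calls were lost when certain single libraries were left out (lowest spread 1.34, 0.91 and 0.89, with a highest adjusted p of 0.052, 0.085 and 0.0025), and that of TNFAIP3 also with TPM rescaling. In AMO1 both RELB and NFKB2 were called higher. In RPMI-8226 RELB was called lower and NFKB2 was not called (95% interval of its log2 difference -0.35 to 0.54). RELB and NFKB2 were not tested against each other.

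**Figure D3:**
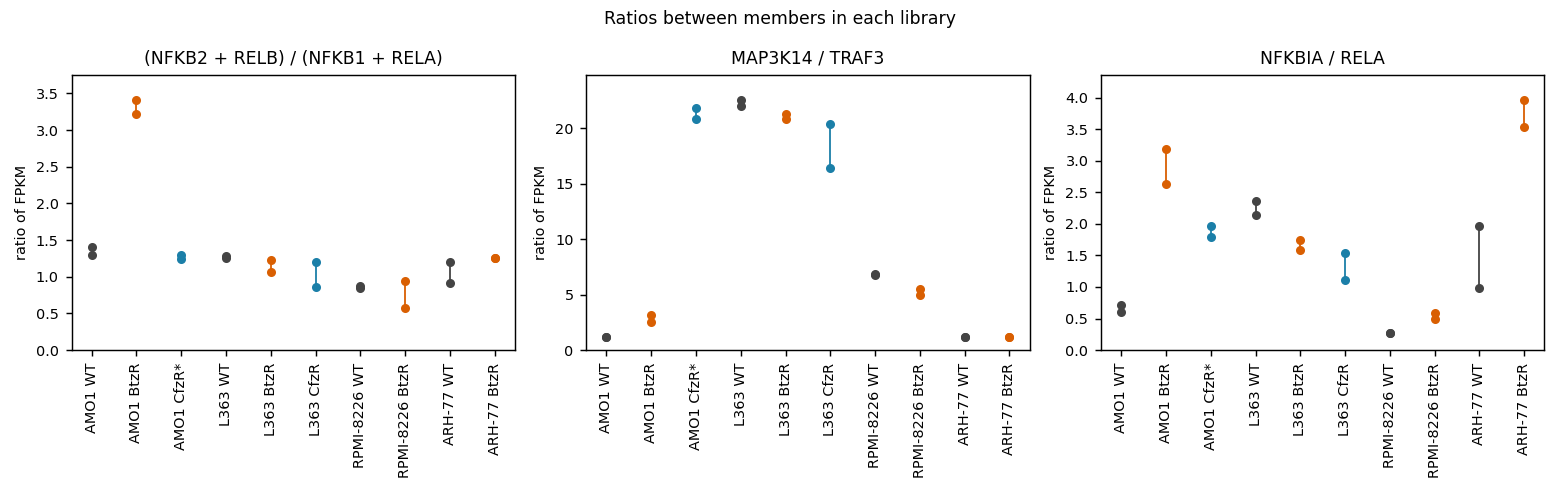
Ratios of FPKM between members in each library (linear axes from 0, 1 point per library, replicates joined; grey WT, orange BtzR, blue CfzR, asterisk as labelled AMO1 CfzR). The non-canonical to canonical subunit ratio stands apart in AMO1 BtzR (3.42 and 3.21), and the ratio of MAP3K14 to TRAF3 in the L363 libraries (16.4 to 22.6), where the libraries labelled AMO1 CfzR also lie (20.8 and 21.8).

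Several members differed together between the replicates of a group. In ARH-77 WT replicate 1 exceeded replicate 2 in NFKB2 (75.6 against 46.7 FPKM), RELB (25.5 against 13.9), BIRC3 (40.3 against 27.6), TNFAIP3 (36.2 against 22.7) and NFKBIA (71.3 against 29.8). The NFKBIA gap of 1.23 on the log2 scale was exceeded by 0.481% of tested genes between these 2 libraries. In RPMI-8226 BtzR it was replicate 2 that was higher in NFKB2 (48.3 against 30.3 FPKM), RELB (8.76 against 4.99), BIRC3 (6.93 against 3.90) and TNFAIP3 (25.3 against 16.3). In L363 CfzR replicate 2 was also higher in all 4, by 0.45 to 0.71 on the log2 scale.

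The sign of the gap was that of NFKB2 in 9 of the 10 groups for RELB, BIRC3 and NFKB1, in 8 for MAP3K14, in 7 for TNFAIP3 and REL, in 6 for NFKBIA and RELA and in 5 for TRAF3. Among all other tested genes, 2.25% had the sign of NFKB2 in 9 or more groups, and 41.3% had it in 6 or more. NFKB2 was higher in replicate 2 in every group but AMO1 BtzR and ARH-77 WT. RELB and NFKB1 were higher in replicate 2 in every group but ARH-77 WT. The shared sign was thus mostly that of replicate 2 above replicate 1. No source says what a shared replicate number stands for, and no time or flask is given. Whether same-numbered libraries share an effect on these genes was not tested. Of the 49 further pathway genes tested (below), 35 were higher in replicate 1 of ARH-77 WT and 14 lower, where 38.7% of all tested genes were higher. TRAF1 was at 64.6 and 18.3 FPKM and BCL3 at 22.7 and 11.1, whereas TRAF5 was at 7.27 and 10.6. ARH-77 WT and RPMI-8226 BtzR also had the most tested genes with a gap above 1 on the log2 scale, 161 and 131, against 9 to 37 in the other groups.

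**Figure D4:**
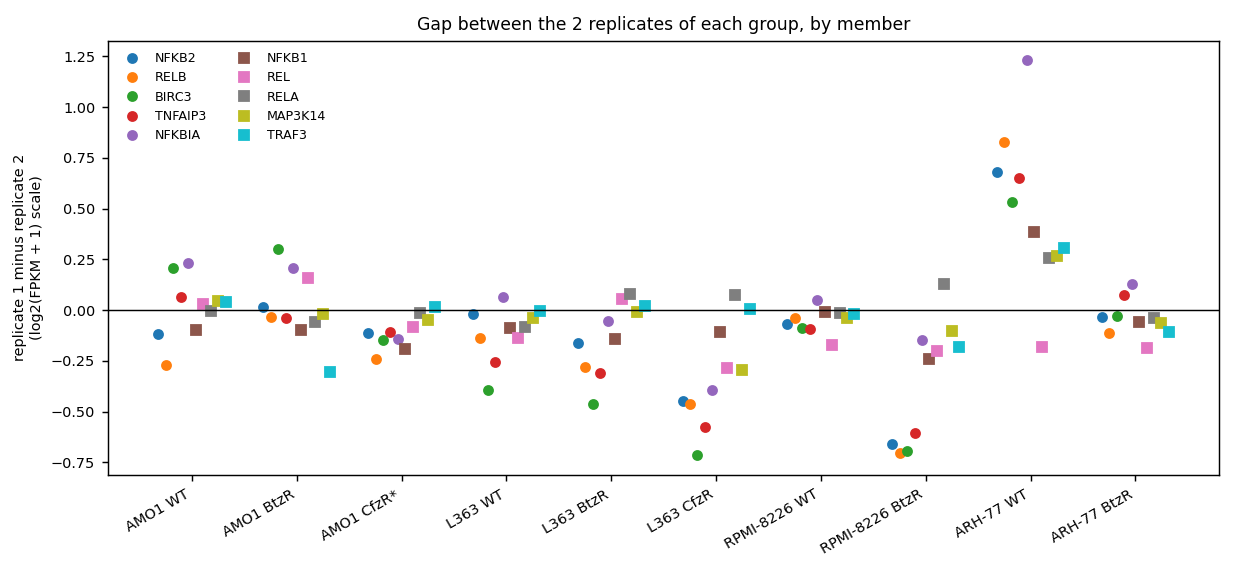
Difference between replicate 1 and replicate 2 of each group for each member (log2(FPKM + 1) scale; points above 0 are higher in replicate 1; circles are NFKB2, RELB, BIRC3, TNFAIP3 and NFKBIA, squares the others; the asterisk marks the libraries labelled AMO1 CfzR). All members but REL lie above 0 in ARH-77 WT, with NFKBIA at 1.23, and NFKB2, RELB, BIRC3 and TNFAIP3 lie together below 0 in RPMI-8226 BtzR and L363 CfzR.

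The wider pathway was followed in 51 further genes in 6 lists, of which 49 were tested. In AMO1 BtzR 9 were called higher (18.4%, against 4.61% of all tested genes) and 2 lower (4.08% against 4.57%), with a median of 0.29 on the log2 scale against -0.00 over all tested genes. The called genes among the other inhibitors were BCL3, a nuclear partner of p50 and p52, at 22.0 and 20.6 FPKM against 6.62 and 8.27 in WT (log2-fold change 1.40), and NFKBIZ, a further nuclear IκB protein (1.21). TAB3, which serves the kinase TAK1, rose by 1.12 and was the 1 of 7 genes of the kinase complex to be called. TRAF1, an adaptor, rose from 1.23 and 1.72 FPKM to 9.36 and 7.89 (1.96). CD74, the invariant chain of MHC class II and part of an index of NF-κB activity in myeloma, rose from 851 and 938 FPKM to 6328 and 6320 (2.82), and PLEK of the same index rose by 1.18. Of the receptors, TNFRSF1A fell by 1.62, from 2.29 and 2.89 FPKM to 0.24 and 0.09. Among common targets CCR7 rose by 1.06 at a low level, from 0.15 and 0.10 FPKM to 1.75 and 1.01. The chemokine gene CCL3 fell by 1.09, a gene whose reads may be shared with near-identical copies.

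In RPMI-8226 BtzR 2 of the 49 were called higher (4.08%, against 5.91% of all tested genes) and 8 lower (16.3% against 7.92%), with a median of -0.14 against 0.05 over all tested genes. The adaptors TRAF1 and TRAF5 rose, TRAF1 from 4.35 and 4.61 FPKM to 20.7 and 29.99 (2.24) and TRAF5 from 7.53 and 7.19 to 23.2 and 28.6 (1.68). The receptors TNFRSF13B (TACI) and TNFRSF17 (BCMA), which receive the survival signals BAFF and APRIL in plasma cells, fell. TNFRSF17 was at 94.0 and 98.1 FPKM in WT and at 7.86 and 4.93 in BtzR (-3.74), and TNFRSF13B at 15.3 and 18.5 FPKM in WT and listed at 0 in both BtzR libraries. CD74 went from 507 and 487 FPKM to 1.55 and 3.92 (-7.13), and IL2RG, the common cytokine receptor chain, fell by 5.13. Of the common targets, LTB fell by 1.58 and TNFAIP2 by 1.1.

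In L363 few genes of the wider pathway were called. In BtzR 0 of 49 were higher, where 1.02% of all tested genes were, and 3 lower (6.12% against 1.05%, median -0.10), namely the receptor gene TNFRSF1B at 1.48 and 1.65 FPKM against 10.7 and 11.9 (-2.26), PLEK (-1.87) and CCL3 (-1.93). In CfzR 0 were higher, where 1.11% of all tested genes were, and 2 lower (4.08% against 0.825%, median -0.03), namely CD74 (-1.06) and PLEK (-2.64). TNFRSF1B was at 8.55 and 9.02 FPKM in CfzR, 1.93 above BtzR on the log2 scale (limma adjusted p = 2.2e-07). It was the 1 gene of the 49 called between these 2 evolved lines (2.04% higher, against 0.94% of all tested genes). In ARH-77 BtzR CCL3 rose by 1.49, from 0.64 and 0.34 FPKM to 5.68 and 1.59, LTB fell by 1.72, and no other gene of the 49 was called (median 0.02). This is 2.04% in each direction, against 0.955% and 0.649% of all tested genes.

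**Figure D5:**
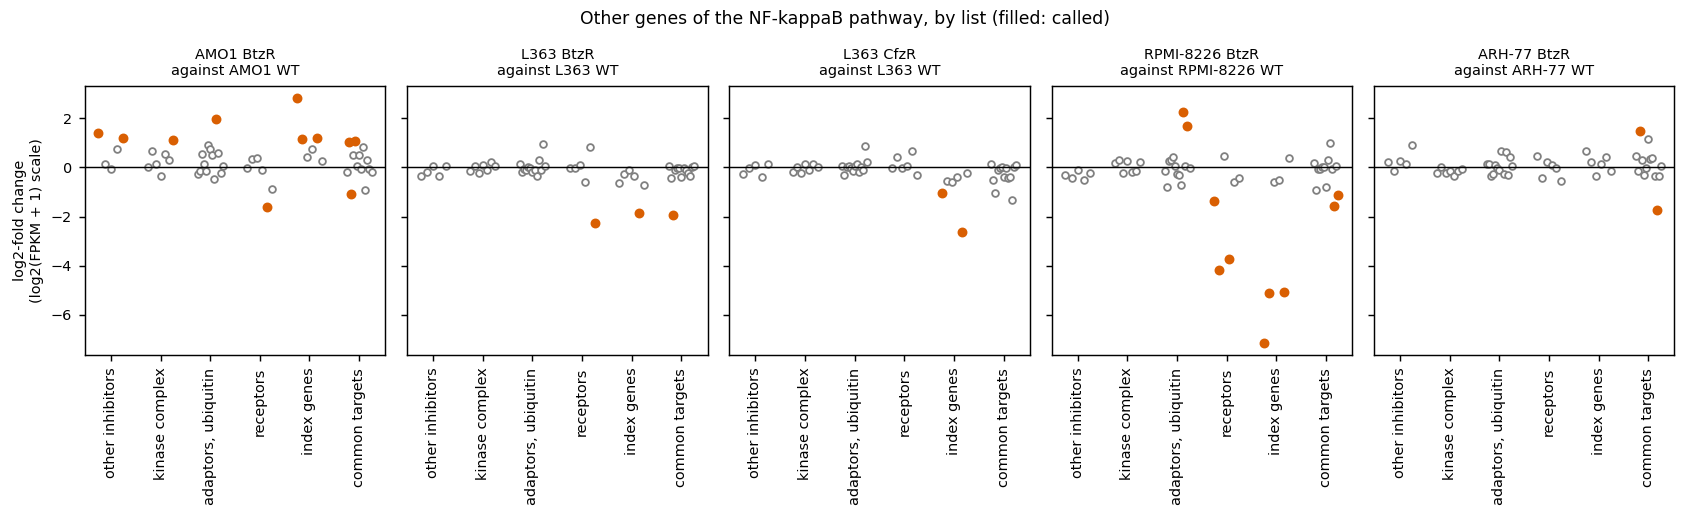
Log2-fold change (log2(FPKM + 1) scale) of the 49 tested further genes of the pathway, 1 point per gene by list (NFKBIE stands in 2 lists), in each resistant group against WT; filled points passed both thresholds. AMO1 BtzR has 9 called higher and 2 lower (4.61% and 4.57% of all tested genes), RPMI-8226 BtzR 2 higher and 8 lower (5.91% and 7.92% of all tested genes), with CD74 lowest at -7.13.

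Some genes outside the pathway had patterns much like those of members over the 20 libraries. The best match of each member had a Pearson r from 0.837 (RGS2 with RELB) to 0.984 (TLN1 with REL). NFKB2 was matched best by NT5C1A (0.922) and WWC3 (0.920), MAP3K14 by ADA and MEF2C (both 0.977), TRAF3 by DIS3 (0.973) and XRN2 (0.969), and NFKBIA by TMEM165 (0.952) and RBM22 (0.935). The libraries share lines, so these values largely follow the order of the lines and are given as a description.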

How the data were processed

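BGI extracted the RNA, made the libraries and sequenced them (BGISEQ-500). The table deposited by the authors holds FPKM of 18305 genes with NCBI gene IDs, 1 column per library. The submitters' processing notes name HISAT2 2.0.4, Bowtie2 2.2.5 and RSEM 1.2.12, without roles, and the genome build is not given in the sources used here. No read counts accompany the values, so the depth is unknown and no counting interval or floor was computed; precision rests on 2 replicates per group, for which an exact permutation test cannot go below a two-sided p of 0.33.

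All tests used limma 3.58.1 (R 4.3.3) on log2(FPKM + 1), a scale that understates changes of low genes. The model had 1 mean per group over the 20 libraries (10 residual degrees of freedom) and a mean-variance trend, and took the 13089 genes that averaged 1 FPKM or more in some group. Each gene thus had 1 spread pooled over all groups, and its SE was the same in every comparison of 2 groups, however far apart their own replicates lay. P-values were adjusted by Benjamini-Hochberg over all tested genes within each comparison. Calls needed an adjusted p under 0.05 together with a log2-fold change of 1 or more in size, or for F tests a spread of at least 1 between the lines. The fit was also run on simulated data, in which 1 large size of change was added to some better-expressed genes of AMO1 BtzR. This does not show how the fit treats smaller changes or low genes.

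The members and lists were chosen with earlier results of these data known. Besides all members, the text names from each pathway list and comparison the 2 that changed most among those called, and for the members described the 2 genes with the most similar profile; BCL3, TRAF1 and TRAF5 in the replicate gaps and single marker genes were chosen after their values were seen. Alternatives were other pseudocounts (0.1 and 0.01), filters and scalings, no trend, a replicate block, fewer libraries in the fit, and leaving out each library. The labels share replicate numbers between groups, but deviations of same-numbered libraries did not correlate in every pair (r = -0.0055 in AMO1 BtzR and 0.19 to 0.24 in the other 4 comparisons with WT), and no source ties the numbers to a shared day or flask, so they were not used as pairs. Figures and promoter searches used Python 3.11.15, pandas 2.3.3 and matplotlib 3.10.9.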

Additional observations from a re-analysis of the deposited data

Results flagged for a closer look

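For 6 members the change from WT to BtzR differed between AMO1, L363, RPMI-8226 and ARH-77, where 32.6% of all tested genes did. This rests on limma's F test on the interaction term, with Benjamini-Hochberg adjustment over all tested genes and a spread of at least 1. MAP3K14 and NFKB1 also had an adjusted p under 0.05 (0.00054 and 0.031, same test), with spreads of 0.76 and 0.50. The spread between the highest and lowest line effect was 2.72 for RELB, 2.34 for NFKBIA and 1.5 for NFKB2 (log2, adjusted p = 8.7e-05, 0.00039 and 0.0018). It was 1.57 for BIRC3, 1.06 for TNFAIP3 and 1.05 for TRAF3 (adjusted p = 0.011, 0.022 and 0.00046). The calls of BIRC3, TNFAIP3 and TRAF3 were each lost when certain single libraries were left out. RELB was higher than WT in both AMO1 BtzR libraries and lower in both RPMI-8226 BtzR libraries. Groups of 2 libraries allow no test for a single library that stands apart.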

How the results depend on the processing

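Each of 100 member results (10 members in 8 comparisons and 2 F tests) was recomputed under every alternative that its comparison allows. Of the 22 that were called, 17 kept their call in every setting, among them all 3 in AMO1 BtzR and RELB in RPMI-8226 BtzR. The 17 also hold every call among the WT lines and for the libraries labelled AMO1 CfzR against AMO1 WT. All calls that were lost concerned resistance: BIRC3 in L363 CfzR, NFKBIA in ARH-77 BtzR, and BIRC3, TNFAIP3 and TRAF3 in the interaction test. With the replicate number as a block, the 10 comparisons had 22 member calls, as without it, so that the block changed no count (members called in AMO1 BtzR: 3). Same-numbered libraries deviated together weakly in 4 of the 5 comparisons with WT (r from 0.19 to 0.24) and not in AMO1 BtzR (r = -0.0055), and no source says what a shared number stands for. In L363 CfzR the count of called members was 0 with no filter, with TPM rescaling and with quantile normalization, and 0 to 1 when single libraries were left out. In ARH-77 BtzR it was 0 in the fit of the compared libraries only and 0 to 1 when single libraries were left out. In the interaction test TNFAIP3 was not called with TPM rescaling (0.96) or without L363 WT replicate 2, L363 BtzR replicate 1 or ARH-77 WT replicate 2. BIRC3 was not called there without L363 WT replicate 2 or L363 BtzR replicate 1, nor TRAF3 without AMO1 BtzR replicate 1 or RPMI-8226 BtzR replicate 2. The lone library left in such a group was assumed to vary like the others. The causes were not tested. REL was called against AMO1 WT in the libraries labelled AMO1 CfzR with a pseudocount of 0.01 (1.02).

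Reversed differences numbered 31, in 21 results, and 0 of them were called (log2 scale throughout). With TPM rescaling REL in AMO1 BtzR against AMO1 WT was -0.023, RELA in L363 BtzR against L363 WT was 0.042, MAP3K14 in L363 BtzR against L363 WT was 0.019, TRAF3 in L363 CfzR against L363 WT was 0.015, NFKB1 in L363 CfzR against L363 BtzR was -0.022. With quantile normalization REL in AMO1 BtzR against AMO1 WT was -0.0079, RELA in L363 BtzR against L363 WT was 0.017, TRAF3 in L363 BtzR against L363 WT was -0.0081, REL in L363 CfzR against L363 WT was -0.022, TRAF3 in AMO1 CfzR (as labelled) against L363 WT was 0.0022. When single libraries were left out, the range in AMO1 BtzR against AMO1 WT was REL from -0.072 to 0.083. In L363 BtzR against L363 WT the range was RELA from -0.059 to 0.026. In L363 CfzR against L363 WT the range was REL from -0.11 to 0.17. In RPMI-8226 BtzR against RPMI-8226 WT the range was NFKB2 from -0.23 to 0.42, BIRC3 from -0.20 to 0.49. In ARH-77 BtzR against ARH-77 WT the range was NFKB1 from -0.36 to 0.027, NFKB2 from -0.13 to 0.55, RELA from -0.23 to 0.029, RELB from -0.58 to 0.25, TRAF3 from -0.090 to 0.22, MAP3K14 from -0.061 to 0.20. In AMO1 CfzR (as labelled) against AMO1 WT the range was BIRC3 from -0.027 to 0.18. In L363 CfzR against L363 BtzR the range was NFKB1 from -0.064 to 0.080, NFKB2 from -0.33 to 0.12, RELB from -0.39 to 0.075, TNFAIP3 from -0.52 to 0.053, BIRC3 from -0.71 to 0.0048. Depth could not be assessed, since no counts accompany the FPKM.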
